A study of Rattus norvegicus with 19 samples.

Results

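The 18 genes described here were each chosen through 1 probe set, with higher signal in deep motor cortex 7 and 14 days after a spinal lesion. For 14 of them the array holds other probe sets, 25 in all, and none of the 25 met the rule. The 18 were chosen by their values. All 3 day 7 arrays and 2 of the day 14 arrays lay above all 4 control arrays. The mean of these 5 lesion arrays was also at least 0.3 above the control mean on the log2 scale. Of 20826 probe sets that carry 1 gene symbol, 18 met these conditions, which is 0.0864%. The rule left out 10 genes of the injury response, among which Vip, Gal, Npy, Atf3 and Ecel1 met the same limits with 1 probe set each.

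The samples were 19 arrays of RNA from adult female Fischer 344 rats, 4 of control and 15 taken after the dorsal columns had been cut with a wire knife at C3 in the neck. Corticospinal axons run there in rats, and the tissue taken was the lower part of motor cortex (forelimb and hindlimb areas), which holds layer V and so their cell bodies. Days 1, 3, 7, 14 and 49 after the cut had 3 arrays each. The labels name no transgene or drug. They leave unsaid if a sham operation was done on control rats and if animals were pooled, and p-values measure only the spread between these samples, which may be technical. Values are log2 signals after RMA, which brings arrays to a common distribution. A dissected piece holds neurons, glia and vessels, and fewer cells of a type cannot be told apart from less RNA per cell.

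In 17 of the arrays the median correlation with the other arrays was 0.994 to 0.997, against 0.931 in day 14 replicate 2 and 0.968 in day 49 replicate 2. For beta-actin, the log2 difference between the 3' and the 5' probe set, which grows as RNA breaks, was 2.24 in day 14 replicate 2, 0.845 in day 49 replicate 2 and 0.877 to 1.29 in the 17. Day 14 replicate 2 is left out of all fits and means below, and day 49 results are given with and without replicate 2. All 15 neuron markers and all 16 layer V markers had a probe set, which says only that the array carries them and is no check of the tissue. The mean level of the layer V list was 8.29 to 8.33 in control, 8.31 to 8.36 at day 7 and 8.31 in both day 14 arrays used.

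After its axon is cut, a neuron switches on transcription factors, cytoskeletal genes and secreted or surface proteins that are used in regrowth. Central neurons such as those of the corticospinal tract do this less fully than neurons of the peripheral nervous system, and the response is weaker when the cut lies far from the cell body. The 18 genes fall into surface and secreted proteins (Flrt3, Sdc1, Reln, Kcnk10, Ildr2), transcription factors (Onecut2, Zeb2), signalling proteins (Dusp6, Gnb1), cytoskeleton and transport proteins (Mapt, Dync1li1, Cct6a), cell cycle proteins (Cdk1, Kif22) and transporters, an enzyme and another gene (Slc5a3, Slc3a1, Acot2, Depdc7).

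The differences that defined the genes were small. The 5 lesion arrays exceeded control by 0.30 to 0.48 with a median of 0.33, a fold change of 1.23 to 1.40, and no gene reached 0.5. The gap between the lowest of these 5 arrays and the highest control array was 0.003 to 0.163 with a median of 0.050. At the limit, Mapt (0.30), Zeb2 (0.30) and Cdk1 (0.31) lay just inside, and Arg1 (0.297), Vcl (0.292) and Mdn1 (0.289) just outside. The rule turned downward took 124 probe sets (0.595%). Whatever the overlap of arrays, 0.355% of probe sets were at least 0.3 above control and 1.77% at least 0.3 below. Without a limit of size, 192 (0.922%) had all 5 lesion arrays above all control arrays and 420 (2.02%) had all 5 below. With 1 probe set per gene these were 152 (1.07%) above and 178 (1.25%) below, of 14217 genes. All these values come from the arrays used to choose the genes, so they describe them and test nothing.

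Control replicate 3 set the size in several genes. It was the lowest control array in 6 of the 18, and without it 6 were under 0.3. For Gnb1 the difference was 0.48 with 4 control arrays and 0.26 without control replicate 3. For Slc5a3 it went from 0.43 to 0.19, for Dusp6 from 0.36 to 0.16 and for Dync1li1 from 0.31 to 0.14. Onecut2 (0.25) and Zeb2 (0.27) were also under the limit. The other 12 genes lay at 0.32 or above without it, with Depdc7 highest at 0.42. The other control arrays also mattered at the limit: 2 genes were under 0.3 without control replicate 1 (Slc3a1 and Mapt), 3 without replicate 2 (Kif22, Kcnk10 and Zeb2) and 4 without replicate 4 (Reln, Flrt3, Cdk1 and Mapt). The lowest of these were Cdk1 (0.22), Reln (0.23) and Kif22 (0.24). In the median correlation with other arrays, control replicate 3 was at 0.994, the low end of the 17.

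**Figure D1:**
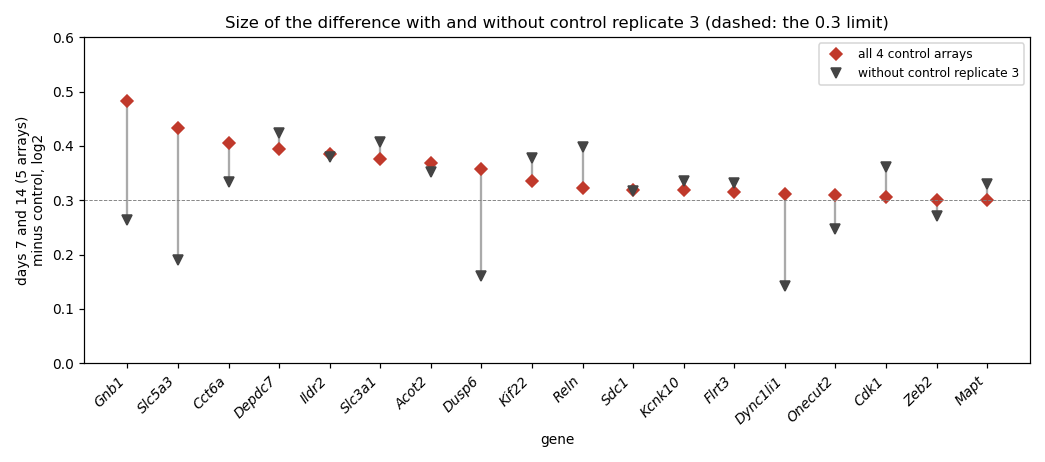
Log2 difference between the mean of 5 lesion arrays (days 7 and 14) and the control mean (y axis) for the 18 genes (x axis), with all 4 control arrays (diamonds) and without control replicate 3 (triangles). Gnb1, Slc5a3, Dusp6 and Dync1li1 dropped the most, to between 0.14 and 0.26, below the dashed limit of 0.3.

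Other probe sets of the same genes were compared next, since these read other parts of the same transcripts on the same arrays. Of the 18 genes, 14 had other probe sets, 25 in all. Of these 25, 12 were above control and 13 below at days 7 and 14, with a median of -0.002 and a range of -0.89 to 0.33, and 0 had all 5 lesion arrays above all control arrays. Onecut2 was closest to a match, with another probe set at 0.33 and 4 of 5 arrays above all control arrays, and 2 more at 0.12 and 0.00. That of Sdc1 also had 4 of 5 arrays above, at a difference of 0.06. Dusp6 had others at 0.31 and 0.09. The 13 below control were both others of Gnb1 (-0.89 and -0.18), that of Dync1li1 (-0.56), both of Mapt (-0.06 and -0.05), both of Acot2 (-0.09 and -0.04), that of Kcnk10 (-0.11), 2 of the 4 of Zeb2 (-0.25 and -0.06), 2 of the 3 of Ildr2 (-0.02 and -0.00) and that of Depdc7 (-0.00). In none of these 14 genes did another probe set meet the array condition of the rule. Flrt3, Slc3a1, Kif22 and Cdk1 had no other probe set.

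**Figure D2:**
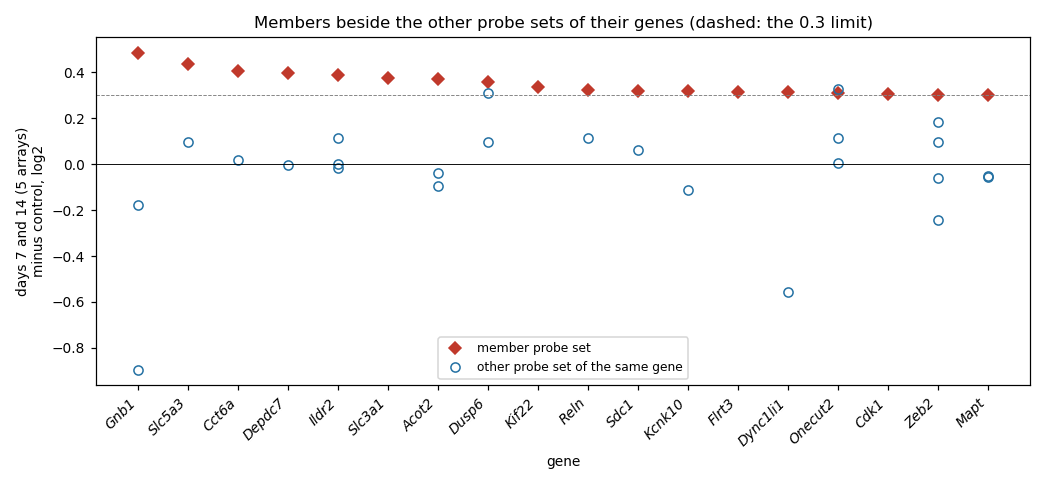
Log2 difference of days 7 and 14 (5 arrays) from control (y axis) for the 18 chosen probe sets (diamonds) and the 25 other probe sets of the same genes (open circles). The chosen ones lie at 0.30 to 0.48 by the rule, and the others spread around 0 from -0.89 to 0.33.

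Among surface proteins, Flrt3 encodes a leucine-rich repeat membrane protein that binds latrophilins and Unc5 receptors and takes part in axon guidance. Its control values were 6.84, 6.90, 6.91 and 6.81. They were 7.08, 6.95 and 7.56 at day 1, 7.11, 7.08 and 7.12 at day 3, 7.00, 7.14 and 7.50 at day 7 and 7.21 and 7.04 in the day 14 arrays used. At day 49 they were 6.65, 6.37 and 6.71. The arrays of days 7 and 14 lay above every control array by the rule. Those of days 1 and 3 did so as well, and the 3 arrays of day 49 lay below every one.

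Sdc1 encodes syndecan-1, a heparan sulfate proteoglycan of the cell surface. Its control arrays ran from 5.82 to 5.97, and those of days 7 and 14 from 6.02 to 6.32. Day 1 was also above, at 6.03, 6.08 and 6.01, whereas at day 3 (5.81, 5.91 and 5.85) no array was above control and replicate 1 lay just below the lowest control array. Day 49 was spread from 5.79 to 6.31.

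Reln encodes reelin, a secreted protein of Cajal-Retzius cells and of some cortical interneurons that guides neuron placement in development. Control values were 8.88, 8.76, 9.01 and 8.50, a mean of 8.79 ± 0.22 (SD, n = 4). Day 1 stayed within that range at 8.71, 8.52 and 8.78. Day 3 was above all control arrays at 9.24, 9.28 and 9.13, day 7 was at 9.25, 9.24 and 9.01 and day 14 at 9.04 and 9.01. At day 49 the values were 9.02, 8.32 and 8.73. The gap at days 7 and 14 was the narrowest of the 18 at 0.003.

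Kcnk10 encodes a two-pore potassium channel. In control it was at 4.31, 4.28, 4.39 and 4.38, at day 3 at 4.53, 4.53 and 4.55, at day 7 at 4.61, 4.67 and 4.55 and at day 14 at 4.70 and 4.77. Its gap of 0.163 was the widest of the 18, and its control SD of 0.055 was small. Its signal was low, with a mean at percentile 24.4 of named probe sets. Day 1 (4.39, 4.29 and 4.58) and day 49 (4.56, 4.33 and 4.60) overlapped control. Ildr2, which encodes an immunoglobulin-like membrane protein, was at 3.50 ± 0.05 (SD, n = 4) in control, and its mean lay at percentile 6.75 of named probe sets. Its values of 3.62, 3.64 and 4.31 at day 7 and 4.10 and 3.75 at day 14 were uneven, with an SD of 0.31 over the 5 arrays.

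Of the transcription factor genes, Onecut2 encodes a homeodomain factor active in neurons of the developing nervous system. It was at 7.41, 7.40, 7.12 and 7.28 in control and at 7.62, 7.38 and 7.46 at day 1. Day 3 was the highest time, at 7.93, 7.89 and 7.86, before 7.79, 7.74 and 7.51 at day 7 and 7.44 and 7.57 at day 14. Day 49 replicate 2 stood far below, at 6.36, while replicates 1 and 3 were at 7.66 and 7.41.

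Zeb2 encodes a zinc finger repressor that is used in neuron and glia development. Control values were 6.51, 6.34, 6.34 and 6.52, and day 1 was at 6.37, 6.17 and 6.45. The arrays of day 7 (6.65, 6.70 and 6.87) and day 14 (6.77 and 6.65) lay above control by the rule. Those of day 3 (6.79, 6.53 and 6.81) also lay above control. Those of day 49 lay below it, at 6.30, 5.32 and 6.17, again with replicate 2 farthest away.

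Dusp6, a phosphatase that switches off ERK kinases and is itself induced by ERK signalling, was highest at day 1. It measured 7.80, 8.02 and 8.38 at that time against 7.68, 7.74, 6.89 and 7.60 in control. The values were 7.78, 7.61 and 7.61 at day 3, 7.95, 7.82 and 7.80 at day 7, 7.79 and 7.81 at day 14 and 7.71, 8.01 and 8.19 at day 49. Gnb1, which encodes a beta subunit of heterotrimeric G proteins, was at 12.05, 12.19, 11.29 and 12.25 in control and at 12.33 to 12.55 at days 7 and 14. Control replicate 3 lies alone at the bottom in both genes.

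Among genes of the cytoskeleton and transport, Mapt encodes tau, which binds axonal microtubules. It was at 10.61, 10.73, 10.78 and 10.63 in control, at 10.99, 10.86 and 11.10 at day 7 and at 10.95 and 11.04 at day 14. Dync1li1, a light intermediate chain of the dynein motor that carries cargo toward the cell body, was at 11.06 to 11.17 in 3 control arrays and 10.45 in control replicate 3, against 11.18 to 11.37 at days 7 and 14. Cct6a, a subunit of the chaperonin that folds actin and tubulin, ran from 7.44 to 7.88 in control and from 7.96 to 8.19 at days 7 and 14. Day 49 replicate 2 had the highest Cct6a of all arrays, at 9.15.

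Cdk1 and Kif22 encode cell cycle proteins. Cdk1, the kinase that drives entry into mitosis, was at 4.38, 4.49, 4.56 and 4.14 in control, at 4.63, 4.57 and 4.84 at day 7 and at 4.70 and 4.76 at day 14. Its mean lay at percentile 25.3 of named probe sets. Kif22, a kinesin that binds chromosomes, was at 6.53, 6.18, 6.58 and 6.52 in control, at 6.62, 6.65 and 6.87 at day 7 and at 6.97 and 6.82 at day 14. Their promoters are shown because each carries the letters TTTGAA, on either strand, of the cell cycle genes homology region known from promoters of mitotic genes. The sequences are from RefSeq, build GRCr8, 250 bases before to 50 after the start, 5′ to 3′ on the gene's strand, with matches in capitals. That of Cdk1 lies at chr20:19265043-19265342 on the plus strand and that of Kif22 at chr1:191080829-191081128 on the minus strand.
Cdk1: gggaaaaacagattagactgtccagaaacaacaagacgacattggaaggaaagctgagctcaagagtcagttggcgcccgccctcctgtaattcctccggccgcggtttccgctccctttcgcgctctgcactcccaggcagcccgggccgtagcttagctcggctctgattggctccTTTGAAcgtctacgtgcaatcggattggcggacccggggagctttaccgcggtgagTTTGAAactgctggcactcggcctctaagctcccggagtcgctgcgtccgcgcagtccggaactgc
Kif22: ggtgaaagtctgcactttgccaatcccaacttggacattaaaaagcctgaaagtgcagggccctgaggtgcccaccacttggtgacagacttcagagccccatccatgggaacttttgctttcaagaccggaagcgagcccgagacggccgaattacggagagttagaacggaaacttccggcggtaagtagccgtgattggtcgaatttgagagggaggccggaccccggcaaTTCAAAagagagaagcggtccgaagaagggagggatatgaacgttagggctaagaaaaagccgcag
Cdk1 has 2 matches, starting 72 and 16 bases before the start, and Kif22 has 1, starting 16 bases before it. Of all 27457 promoters of that length 18.1% hold such a match, and of the 14 of the 18 genes with a promoter entry 6 do (also Gnb1, Slc5a3, Slc3a1 and Acot2).

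Slc5a3 encodes a cotransporter of sodium and myo-inositol, and Slc3a1 the heavy subunit of a cystine and dibasic amino acid transporter. Slc5a3 was at 6.88, 6.70, 5.77 and 6.64 in control, at 6.89 to 6.99 at days 7 and 14 and at 6.97, 4.97 and 6.54 at day 49. Slc3a1 was at 5.02 to 5.40 in control and at 6.03, 5.42, 5.42, 5.66 and 5.58 in the 5 lesion arrays. Acot2, a mitochondrial acyl-CoA thioesterase, was at 6.91 to 7.20 in control, at 7.21 to 7.58 at days 7 and 14 and above all control arrays in 8 of the 9 arrays of days 1, 3 and 49. Depdc7, which encodes a DEP domain protein, was at 4.36, 4.50, 4.62 and 4.66 in control, at 4.85, 4.99 and 4.78 at day 3, at 5.10, 4.80 and 5.04 at day 7 and at 4.74 and 4.97 at day 14. At day 49 it was at 4.38, 3.63 and 4.47, and its mean lay at percentile 27.7 of named probe sets.

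The Slc3a1 promoter is shown because it was the only one of the 14 with an AP-1 match, the letters bound by dimers of Jun and Fos. It lies at chr6:15394700-15394999 on the minus strand of GRCr8, and the capitals mark TGANTCA and TTTGAA on either strand.
Slc3a1: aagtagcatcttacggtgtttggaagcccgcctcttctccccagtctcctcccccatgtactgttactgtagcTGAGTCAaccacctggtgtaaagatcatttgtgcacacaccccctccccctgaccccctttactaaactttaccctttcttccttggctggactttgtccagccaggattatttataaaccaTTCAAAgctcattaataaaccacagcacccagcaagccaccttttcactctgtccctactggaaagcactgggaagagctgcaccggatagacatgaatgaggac
The AP-1 match starts 177 bases before the start. Of all 27457 promoters 7.33% hold TGANTCA. None of the 14 held the cyclic AMP response element TGACGTCA (1.91% of all promoters), the STAT motif TTCNNNGAA (8.68%) or the Atf4 motif TGATGNAA (3.82%) on either strand in this window. In the promoters printed no match overlaps another, and a match is only these letters, not a site.

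**Figure D3:**
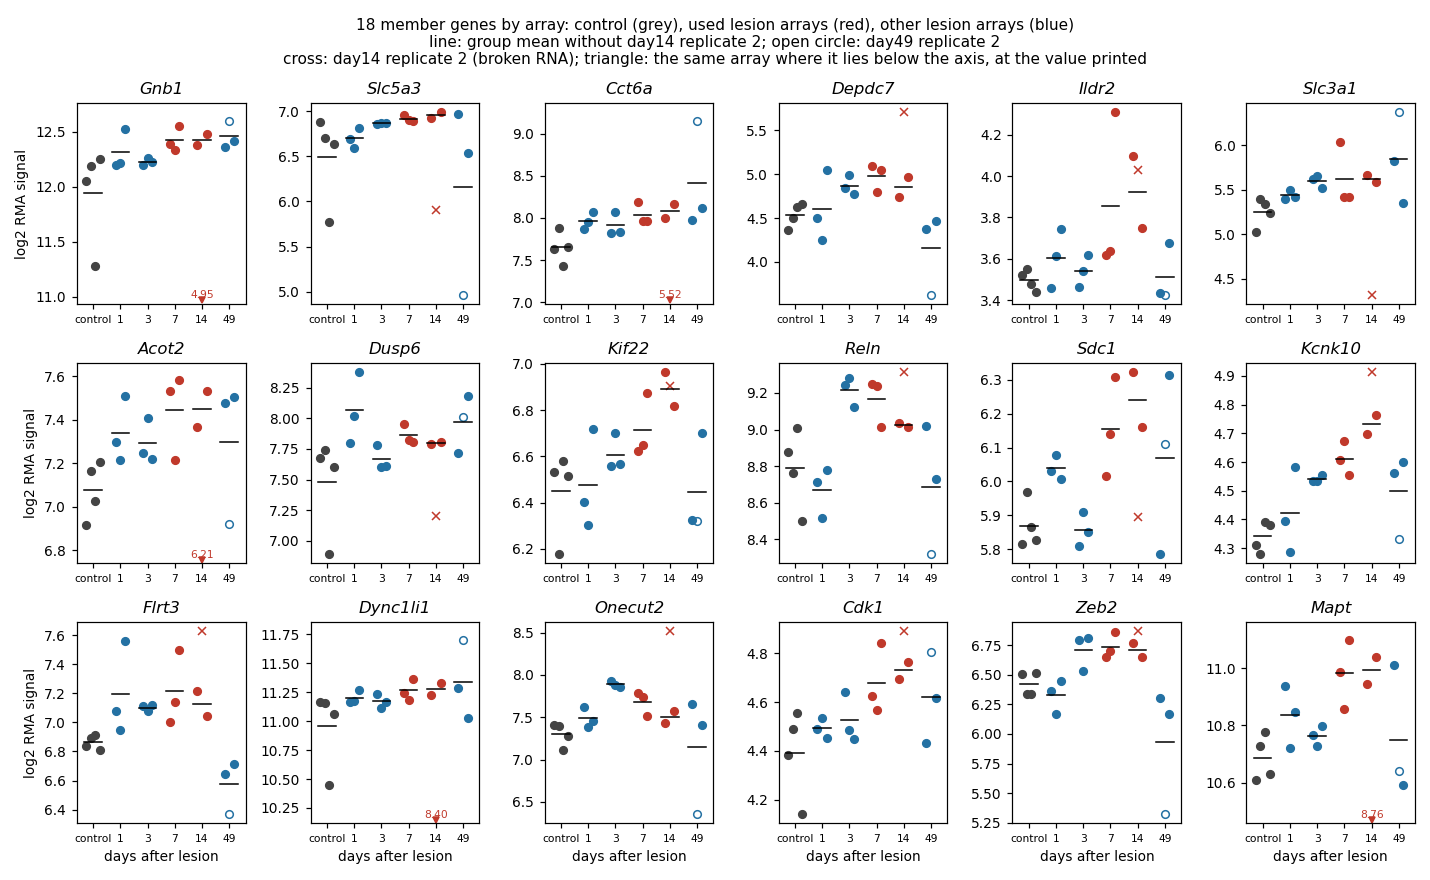
Log2 RMA signal (y axis) of each of the 18 genes on every array by days after the lesion (x axis), with a line at each group mean, day 14 replicate 2 as a cross or triangle and day 49 replicate 2 as an open circle. Arrays of days 7 and 14 that were used (red) lie above control (grey) by the rule, while days 1, 3 and 49 (blue) vary by gene, as in Flrt3, whose 3 day 49 arrays lie below control.

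Days 1, 3 and 49 played no part in the choice of the genes, but the control arrays did, so differences from control at these times are described and not tested. The median of the 18 genes was 0.18 above control at day 1, 0.23 at day 3 and 0.11 at day 49, or 0.19 at day 49 without replicate 2. The same median over all named probe sets was 0.00, -0.01 and -0.03. By array it was 0.10 to 0.26 at day 1, 0.21 to 0.25 at day 3 and -0.06 to 0.23 at day 49, with day 49 replicate 2 at the bottom. At days 7 and 14, which the rule used, it was 0.36 and 0.35.

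In 8 genes day 3 had all 3 arrays above all control arrays, namely Depdc7, Slc3a1, Acot2, Reln, Kcnk10, Flrt3, Onecut2 and Zeb2. Over all named probe sets the share was 2.4%. At day 1, 4 had all 3 arrays above (Acot2, Dusp6, Sdc1 and Flrt3), against 4.02% of all, and 2 had all 3 day 49 arrays above (Gnb1 and Cct6a), against 4.02%. All 3 day 49 arrays lay below control in Flrt3 and Zeb2, against 6.16% of all. At days 1 and 3, 0 of the 18 had all 3 arrays below, against 2.87% and 3.21%. These counts use the control arrays that also chose the genes, so a share above that of all probe sets is no result about them. The 3 day 1 arrays put 7, 8 and 14 of the 18 above all control arrays, against 15.7%, 20.1% and 23.2% of all named probe sets. At day 3 it was 11, 11 and 10, against 12.4%, 18.7% and 12.9%. At day 49 it was 10, 7 and 10, against 12.8%, 35.9% and 25% (replicate 2 is the second of these).

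**Figure D4:**
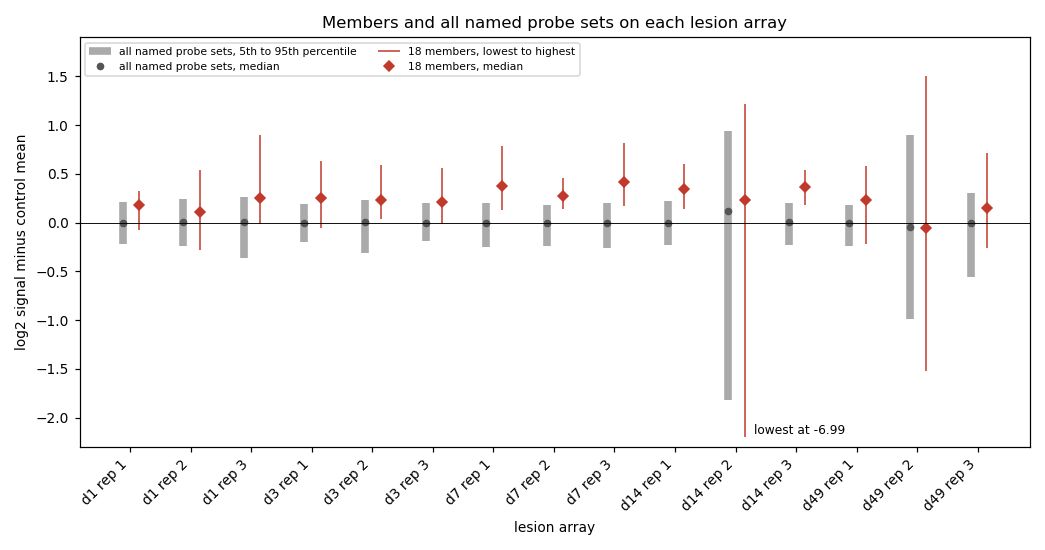
Log2 signal minus the control mean (y axis) on each lesion array (x axis), as median and range of the 18 genes (red) and as median and 5th to 95th percentile of all named probe sets (grey). Day 14 replicate 2 and day 49 replicate 2 have the widest spread in both sets, and the 18 genes' medians at day 3 lie at 0.21 to 0.25.

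Differences between the means of days 1, 3 and 49 use neither the control arrays nor those of days 7 and 14. Their SE, intervals and p do, since the fit pools the spread of all groups, those the rule used included. The comparisons ask whether the genes changed from one early day to the other, and from each early day to the late one. In 1 limma fit of all groups over 18 arrays and 31042 probe sets, with Benjamini-Hochberg adjustment, 0 of the 18 passed an adjusted p of 0.05 between day 3 and day 1, where 0 probe sets were called higher (0%) and 18 lower (0.058%). Between day 49 and day 1 it was again 0 of the 18, with 2 higher (0.00644%) and 14 lower (0.0451%) of all. Between day 49 and day 3 it was 0 of the 18 and 0 of all (0%). At an unadjusted p under 0.05 there were 1, 3 and 6 of the 18, against 3.6%, 13.7% and 22.3% of all probe sets. With only the 2 groups compared in the fit, which leaves out the arrays the rule used, 0 of the 18 passed in each comparison as well, and 7, 1 and 5 had an unadjusted p under 0.05, against 3007, 694 and 1534 of all 31042 probe sets. Without day 49 replicate 2, again 0 of the 18 passed. The shares of all probe sets called were then 0.0483% higher and 0.155% lower for day 3 against day 1, 0.00644% and 0.0387% for day 49 against day 1, and 0% for day 49 against day 3. At an unadjusted p under 0.05 there were 3, 1 and 5 of the 18, against 7.92%, 6.77% and 10.4%.

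Reln had the smallest p between days 1 and 3. Its mean went from 8.67 at day 1 to 9.22 at day 3, a difference of 0.55 with a 95% interval of 0.22 to 0.87 (SE 0.15, adjusted p = 0.633 in limma). Without day 49 replicate 2, which is in neither group but in the shared spread, the adjusted p was 0.0881. The other Reln probe set differed by 0.60 (SE 0.17, limma adjusted p = 0.633). Both were lower at day 49, with differences from day 3 of -0.53 and -0.72 (limma adjusted p = 0.183 for each; -0.34 and -0.55 without day 49 replicate 2).

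Onecut2 and Zeb2 differed between the same days in the same direction. Onecut2 was 0.41 higher at day 3 than at day 1 (SE 0.22, adjusted p = 1 in limma) and Zeb2 0.38 higher (SE 0.18, adjusted p = 1). From day 3 to day 49 the differences were -0.75 for Onecut2 (95% interval -1.23 to -0.27) and -0.78 for Zeb2 (-1.17 to -0.39), each with a limma adjusted p of 0.183. Without day 49 replicate 2 they were -0.36 and -0.48. The 3 other probe sets of Onecut2 were 0.68, 0.26 and 0.33 higher at day 3 than at day 1 and at day 49 differed from day 3 by -1.05, -0.88 and -0.84, or by -0.91, -0.42 and -0.36 without that array. The 4 others of Zeb2 were 0.20, 0.12, 0.41 and 0.089 higher at day 3 than at day 1. At day 49 they differed from day 3 by -0.47, -0.40, -0.86 and -0.17. Without day 49 replicate 2 these were -0.03, -0.46, -0.62 and -0.18. No other probe set of any of these genes passed in the 3 comparisons.

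Flrt3 had the smallest p between days 1 and 49, at 7.20 and 6.58, a difference of -0.62 (SE 0.14, 95% interval -0.93 to -0.31, limma adjusted p = 0.2), or -0.52 without day 49 replicate 2. From day 3 it differed by -0.53 (limma adjusted p = 0.183; -0.42 without that array). Depdc7 differed by -0.45 between days 49 and 1 and by -0.71 between days 49 and 3 (limma adjusted p = 0.361 and 0.183), or by -0.18 and -0.45 without it. The other Depdc7 probe set differed less, by -0.12 and -0.16, or by -0.05 and -0.09 without that array. Cct6a was 0.51 higher at day 49 than at day 3 with replicate 2 and 0.14 without. The other, brighter Cct6a probe set differed by -0.07 between these days, or by -0.03 without that array. Leaving that array out turned the sign of the day 49 difference from day 1 in Onecut2 (-0.34 to 0.05), Slc5a3 (-0.54 to 0.06), Acot2 (-0.04 to 0.15), Dync1li1 (0.13 to -0.05) and Kif22 (-0.03 to 0.04). It turned that from day 3 in Slc3a1 (0.25 to -0.01), Dync1li1 (0.17 to -0.02), Kcnk10 (-0.04 to 0.04), Ildr2 (-0.03 to 0.02) and Mapt (-0.02 to 0.04).

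For the chosen probe sets of Mapt and Cdk1 the differences lay near 0. Mapt differed by -0.07 between days 3 and 1, with an interval from -0.29 to 0.14, and by -0.09 between days 49 and 1 (-0.30 to 0.13). For Cdk1 these were 0.03 (-0.21 to 0.27) and 0.13 (-0.11 to 0.37). The other Mapt probe sets did not follow the chosen one, at 0.25 (0.01 to 0.49) and 0.19 (-0.04 to 0.42) between days 3 and 1. Between days 49 and 3 they differed by -0.24 and -0.19, or by -0.17 and -0.29 without day 49 replicate 2. Dusp6 was among the larger differences between these days, at -0.40 from day 1 to day 3 (-0.81 to 0.01, limma adjusted p = 1).

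**Figure D5:**
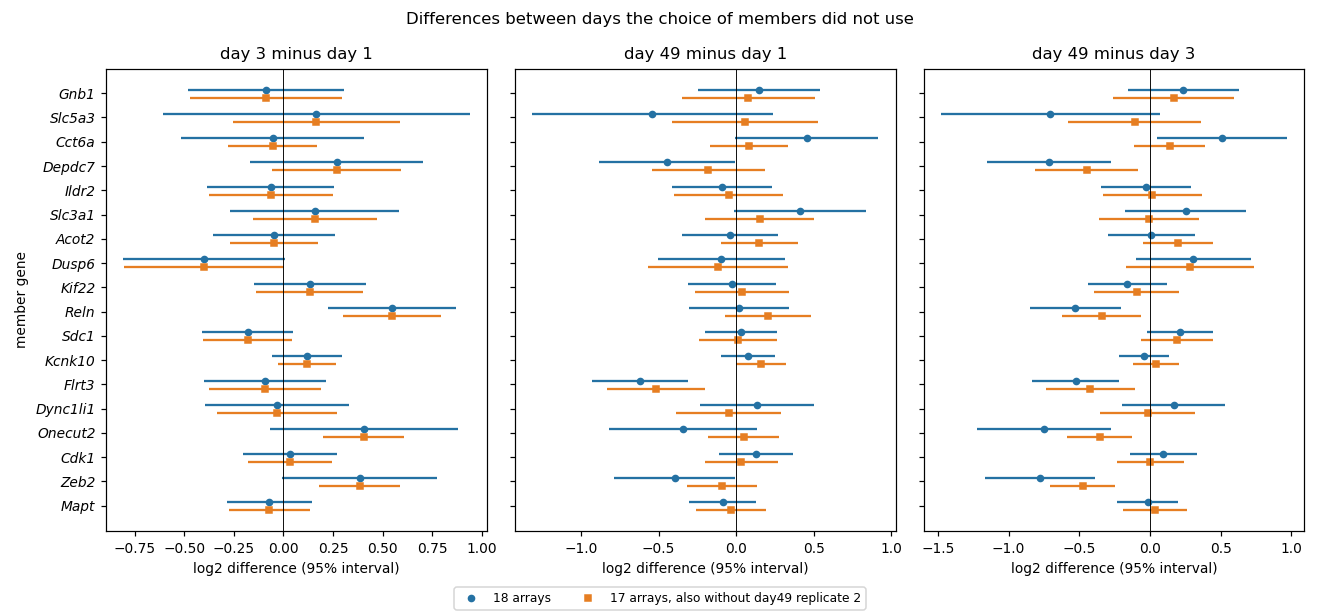
Log2 differences between days 1, 3 and 49 (x axis, with 95% intervals) for the 18 genes (y axis), from the fit of 18 arrays (circles) and of 17, also without day 49 replicate 2 (squares). Between day 49 and day 3, the whole intervals of Reln, Flrt3, Onecut2, Zeb2 and Depdc7 lie below 0 in both fits, and none passed after adjustment.

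Day 14 replicate 2, the array with broken RNA, placed 9 of the 18 above all control arrays, where it placed 50.2% of all named probe sets there. It was lowest for Gnb1, at 4.95 against a control mean of 11.94, and was also far below control for Dync1li1 (-2.56), Cct6a (-2.13) and Mapt (-1.92). Onecut2 (1.21) and Depdc7 (1.17) were the farthest above. These values are given beside the beta-actin measure above, and their part in the differences was not tested.

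The 18 were set against 30 gene lists with 652 genes, of which 584 were measured, and 6 of the 18 are on a list. That is 1.03% of the listed genes measured, where the 18 are 0.127% of all genes. The lists were chosen with earlier results of these data known, so these shares test nothing. Flrt3 and Sdc1 are on the list of regeneration associated genes, Dusp6 on that of immediate early genes and Mapt on that of axon growth and cytoskeleton. Cdk1 is on the list of the cell cycle and Reln on that of interneurons. The counts that follow take 1 probe set per gene, the brightest, which is the chosen one in 13 of the 18. They use the same arrays as the rule, so they are descriptions. Over all 14217 genes, 1.07% had all 5 arrays above all control arrays and 1.25% all 5 below. Of 43 regeneration associated genes 33 were higher and 10 lower at days 7 and 14, with a median of 0.07 against 0.01 for all 14217 genes, and 10 had all 5 arrays above all control arrays; 8 of the 43 are among the genes the rule leaves out. Of 24 cell cycle genes 22 were higher, with a median of 0.08, and 4 had all 5 above and 1 all 5 below. Of all genes 54.4% were higher.

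Of 31 axon growth and cytoskeleton genes 17 were higher, with 1 all above and 2 all below. Of 23 immediate early genes 16 were higher with 0 all above, where Dusp6 was counted by a brighter probe set than the chosen one. Astrocyte (14 measured), microglia and macrophage (18), oligodendrocyte (14), endothelial and pericyte (19), meningeal and choroid plexus (22) and blood cell (13) markers had none of the 18 among them and 0 genes with all 5 arrays above, which at a share of 1.07% says little in lists of this size. Of 6 oligodendrocyte precursor markers 4 were higher and 1 had all 5 arrays above. Their median of 0.11 was the highest of the 30 lists, and their mean level was 6.09 to 6.20 in control, 6.17 to 6.24 at day 7 and 6.24 to 6.25 at day 14. Their part in the values of Cdk1 and Kif22 was not tested. The mean level of the interneuron list, which holds Reln as well as Vip and Npy, was 6.63 to 6.75 in control, 6.77 to 6.99 at day 7 and 6.92 to 7.06 at day 14. Of its 17 genes 10 were higher and 7 lower, with a median of 0.07. There were 4 genes all above, Reln, Vip and Npy among them, and 2 all below. The part of this list in the Reln difference was not tested. Blood cell markers had a mean level of 5.14 to 5.70 in control and 5.50 to 5.76 at day 7, and meningeal markers 7.62 to 7.87 and 7.59 to 7.67.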

How the data were processed

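RNA of deep motor cortex was measured on 19 Affymetrix arrays, 4 of control and 3 at each of 5 times. The authors deposited a log2 table made with RMA, per the submitters' processing notes, and no RMA version is known here. It has 31099 probe sets, and 57 array controls were not tested. Symbols came from the platform annotation, updated to RefSeq by gene ID (20758 probe sets) or accession (2), while 66 kept the annotation's symbol; 436 had several symbols and 9780 none here.

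The genes were taken by the rule given above. They, the gene lists and the tests were chosen with earlier results of these data known, and the promoter motifs after the genes were seen. Genes are named as the 20 of largest difference, which covers all 18, and as the 3 on each side of the limit. Tests used limma (3.58.1, R 4.3.3) with group means of 18 arrays (without day14 replicate 2), eBayes defaults, two-sided, Benjamini-Hochberg adjustment over 31042 probe sets and a threshold of 0.05. Degrees of freedom were 12 residual and 3.29 prior. The method was tested on simulated data. Alternatives were other limits, centring, quantile normalization, a filter, 1 probe set per gene, trend and robust settings, array weights, the replicate number as a block, all 19 arrays, 2 groups only and each array left out. The labels share replicate numbers across groups without saying what they mark. Deviations of like-numbered arrays of days 1 and 49 correlated by 0.239, 0.295 and 0.453, and the other 6 pairs of days 1, 3 and 49 by -0.275 to 0.243. All 3 of days 1 and 49 were over 0.1, but arrays of unlike number were not compared. Whether the numbers mark pairs therefore cannot be told from these values. The number of arrays limits the precision. Figures used matplotlib 3.10.9 (Python 3.11.15).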

Additional observations from a re-analysis of the deposited data

Results flagged for a closer look

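Control arrays of 3 of the 18 genes had 1 value far from the other 3, with a gap to the nearest of them that takes 0.842 of the whole range for Dusp6 (control replicate 3), 0.842 for Kif22 (control replicate 2) and 0.847 for Dync1li1 (control replicate 3). Each is above Dixon's critical value for 4 values, which chance passes in about 1 of 20 groups, and the rule for the genes works on these same control arrays.

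In 4 genes every array of 1 day lay on one side of the control mean and every array of another day on the other side. Between day 3 and day 49 these were Depdc7 (-0.71), Flrt3 (-0.53) and Zeb2 (-0.78), between day 1 and day 49 Flrt3 (-0.62) and between day 1 and day 3 Reln (0.55). The differences themselves were tested with limma and had adjusted p between 0.183 and 0.633. The other Depdc7 probe set differed by only -0.16 between day 3 and day 49.

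Day 14 replicate 2 was not used in the comparisons, and 9 genes were above all control arrays on it. They were Onecut2 (1.21), Depdc7 (1.17), Flrt3 (0.76), Kcnk10 (0.57), Ildr2 (0.54), Reln (0.53), Cdk1 (0.50), Kif22 (0.45) and Zeb2 (0.44), against 50.2% of all named probe sets above control on that array.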

How the results depend on the processing

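The number of genes, 18, was 54 at a limit of 0.2, 0 at 0.5 and 28 with day14 replicate 2 included. It was 14 with centring, 22 with quantile normalization again, 13 with dim probe sets (under the median mean) left out and 13 with 1 probe set per gene. With each array left out it ran from 14 (without day7 replicate 3) to 39 (without control replicate 3). In all of these sets 3 of the 18 were found, of 82 probe sets found in any. The median difference from control ran from 0.19 to 0.27 at day 3 with each array left out. Array weights called 3 genes between days 3 and 1 (Reln, Onecut2 and Zeb2), 2 between days 49 and 1 (Flrt3 and Kcnk10) and 7 between days 49 and 3, where they called 560, 4827 and 7465 of all probe sets (1.80%, 15.5% and 24.0%). With each array left out, 0 to 1 were called between days 49 and 1 and 0 to 8 between days 49 and 3. The 1 (Flrt3) and the 8 came without day49 replicate 1, where 11.3% and 25.1% of all probe sets were called. With the replicate number as a block 0 of the 18 were called in the 3 comparisons, and the block changed no call among them. Over all probe sets it took the calls between days 3 and 1 from 18 to 11. The other settings run for these comparisons, with all 19 arrays and without day49 replicate 2 among them, called 0 of these genes. No gene reaches 0.5, so fits of genes at that limit gave no value. The cause of these shifts was not tested.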
